A study of Mus musculus with 4 samples.

Results

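The report concerns 10 integrin subunit genes, Itga1, Itga2, Itga3, Itga5, Itga6, Itgav, Itgb1, Itgb4, Itgb5 and Itgb6, chosen by symbol from 24411 genes listed in each library. The study profiled poly(A) RNA of 4T1 cells, a long-established line from a mouse mammary carcinoma, in 4 libraries. The 2 control libraries carry the genotype label control, and the 2 others the label CD95ko, each number standing for a different line or clone. The protocols describe 4T1 cells transduced with a Cas9 lentivirus and selected in blasticidin, a pair of guides against exon 9 of the gene for the death receptor CD95 (symbol Fas), and clones grown from single sorted cells and genotyped by PCR. They list untransduced cells, the Cas9 line and 2 such clones as RNA sources, but no label says which control library is which, so the Cas9 vector is carried by the CD95ko clones and by 1 unidentified control. Each CD95ko library is 1 clone, and a difference between the groups cannot be told apart from differences between clones that arose during single-cell cloning. All values below are TPM, the usual length-corrected unit of RNA-seq, in which a gene's level is divided by transcript length and the library is scaled to a fixed total, so levels of different genes can be set side by side.

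Integrins are receptors made of 1 alpha and 1 beta chain that span the plasma membrane, hold cells to extracellular matrix and signal through adaptors bound to their tails. The beta-1 chain, encoded by Itgb1, pairs with many alpha chains and gives collagen receptors (with the products of Itga1 and Itga2), laminin receptors (Itga3 and Itga6) and a fibronectin receptor (Itga5). The beta-4 chain pairs with the product of Itga6 alone and anchors hemidesmosomes of epithelial cells to laminin. The beta-5 and beta-6 chains pair with the alpha-V chain, the former known as a vitronectin receptor and the latter as an epithelial receptor that activates latent TGF-beta. In mammary epithelium these receptors place cells on the basement membrane, and in carcinoma they have been tied to invasion.

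Fas, the targeted gene, had 49.4 and 39.2 TPM in the controls, 15.8 TPM in CD95ko 1 and 49.5 TPM in CD95ko 2, so the library labelled CD95ko 2 was not lower than the controls and every direction below refers to the libraries as labelled. These values cover the whole gene, so reads of the targeted exon cannot be singled out. The 8 epithelial markers examined were above 0 in each library, with summed levels of 6082 and 5672 TPM in the controls and 9735 and 13873 TPM in the CD95ko libraries. Of 10 leukocyte markers, 7 were listed at 0 in all libraries, among them Ptprc, and 5 of 8 fibroblast and 5 of 6 endothelial markers were listed at 0 throughout. The summed leukocyte list was 63.8, 48.5, 52.3 and 219.8 TPM in control 1, control 2, CD95ko 1 and CD95ko 2, carried by Cd68, Itgb2 and Csf1r. Control 2 had the lowest median over the 11167 tested genes, 16.3 TPM, and the other libraries had between 21.3 and 22.9 TPM. Depth is unknown, since TPM holds no read number.

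The members spanned from genes among the most abundant transcripts to 1 at the edge of detection. Itga3, the laminin-binding alpha chain, was the most abundant member in every library and stood above 97.4% of tested genes in control 1 and 97.9% in CD95ko 1. It was 475.0 and 471.4 TPM in the controls and 545.9 and 546.4 TPM in the CD95ko libraries. Itgb1 followed at 376.0 and 363.3 TPM in the controls and 453.2 and 506.5 TPM in the CD95ko libraries. These 2 genes together made up 81.0% and 85.1% of the summed TPM of all 10 members in the controls, and 76.0% and 68.9% in CD95ko 1 and CD95ko 2.

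Below this pair the controls were ordered Itgb5 (57.5 ± 12.6 TPM, mean ± SD, n = 2 here and below), Itgb4 (38.1 ± 15.3), Itgav (27.6 ± 3.80), Itga6 (23.9 ± 2.86), Itga5 (15.1 ± 5.01), Itga2 (8.53 ± 2.96), Itgb6 (2.03 ± 0.594) and Itga1 (0.29 ± 0.410). Neighbours from Itgb5 to Itga6 were not separated, because the 2 control values of each overlapped those of the next. In the CD95ko libraries Itgb5 (212.7 ± 147 TPM) and Itgb4 (98.2 ± 21.2) again overlapped each other, but the lowest of those 4 values, 83.2 TPM, lay above both values of the next member, Itga6 (29.8 ± 7.22). Itgb6, at 10.7 ± 4.59 TPM, came level with Itga2 (8.41 ± 6.42) and Itga5 (16.0 ± 10.0) there, with overlapping values. Itga6 also stood above Itgav in the CD95ko libraries, with no overlap, where the 2 had overlapped in the controls.

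**Figure D1:**
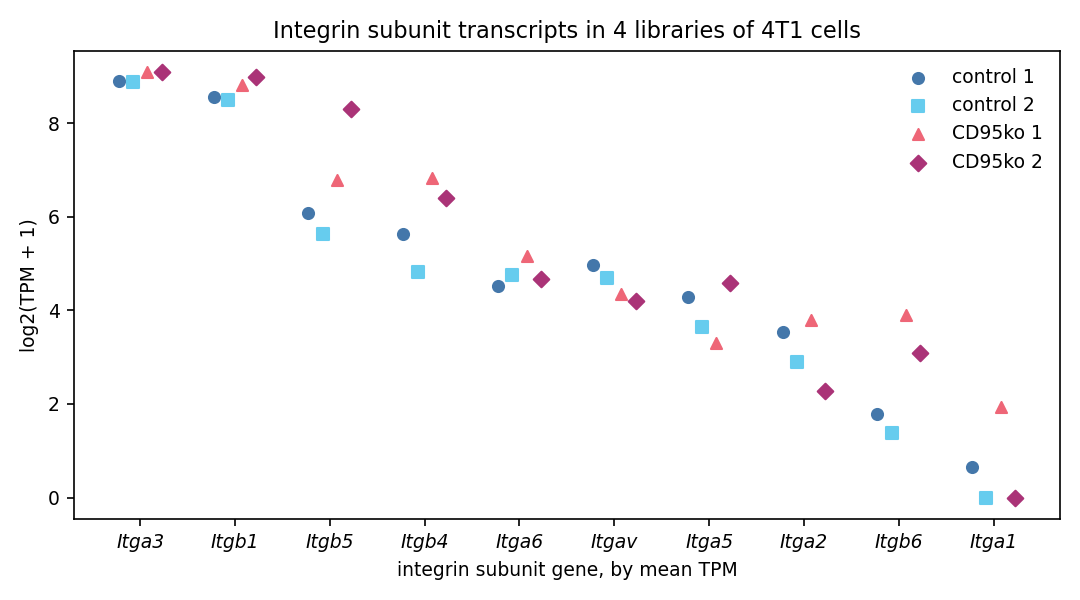
Level of each integrin subunit gene as log2(TPM + 1) on the vertical axis, with genes ordered by mean TPM and 1 point per library (circle control 1, square control 2, triangle CD95ko 1, diamond CD95ko 2). Itga3 and Itgb1 sit at the top in each library, and for Itgb4, Itgb5 and Itgb6 both CD95ko points lie above both control points.

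The comparison of the groups asks which subunit transcripts differ when the libraries labelled CD95ko are set against the controls. Of the 10 members, 9 reached 1 TPM in at least 2 libraries and were tested, and Itga1 did not. None of the 9 passed an adjusted p-value of 0.05 (limma with Benjamini-Hochberg adjustment over all tested genes, smallest 0.185), a threshold that 0.0537% of tested genes passed. At an unadjusted limma p under 0.05, 3 of 9 were higher, Itgb4, Itgb5 and Itgb6, and 0 were lower, where 9.25% of tested genes were higher and 5.68% lower. The higher genes were 62.0% of all genes at that p, and 51.9% under quantile normalization or 43.7% with each library centred on its median, and these 3 members were the ones below 0.05 under each of those scalings. Both CD95ko libraries lay above both controls for 5 of the 9 (29.2% of tested genes) and below both for 1 (18.3%), while 3 overlapped. The median log2 fold change of the 9 was 0.29, against 0.13 over all tested genes. Centring each library on its median moved the latter to -0.07 and that of the 9 members to 0.09. In bulk RNA of a culture, fewer cells of a kind and less transcript per cell cannot be told apart.

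Itgb4, the hemidesmosomal beta chain, lies on chromosome 11 from 115974725 to 116008412 (GRCm38.p6). Its level stood at 48.9 and 27.2 TPM in the controls, 113.2 TPM in CD95ko 1 and 83.2 TPM in CD95ko 2. Both CD95ko libraries were above both controls. The log2 fold change was 1.39 ± 0.40 SE (95% interval 0.47 to 2.30; limma adjusted p = 0.187), from 0.76 to 2.02 over the 4 pairs of 1 CD95ko and 1 control library.

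Itgb5, the beta chain of a vitronectin receptor, lies on chromosome 16 from 33829665 to 33949338. It had 66.4 and 48.6 TPM in the controls, 109.1 TPM in CD95ko 1 and 316.4 TPM in CD95ko 2. The groups did not overlap, but the 2 clones were farther from each other than CD95ko 1 was from either control. The log2 fold change was 1.69 ± 0.49 SE (95% interval 0.58 to 2.80; limma adjusted p = 0.185). It was 0.93 without CD95ko 2 and 2.46 without CD95ko 1, so its size depended on which clone was used.

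Itgb6, the epithelial partner of the alpha-V chain, lies on chromosome 2 from 60598292 to 60722603. At 2.45 and 1.61 TPM in the controls it was above only 8.61% and 9.47% of tested genes. It reached 13.95 TPM in CD95ko 1 and 7.46 TPM in CD95ko 2, above 36.1% and 25.1% of tested genes. The ratio of the group means was 5.27, the largest among the 9 tested members, from values low enough that the added constant of 1 reduces the log2 fold change, which was 1.91 ± 0.61 SE (95% interval 0.53 to 3.28; limma adjusted p = 0.217).

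Leaving out single libraries moved these 3 results. Without control 2, where the CD95ko clones alone set the spread, the log2 fold changes were 0.98 for Itgb4, 1.47 for Itgb5 and 1.70 for Itgb6. That of Itgb4 was 1.61 without CD95ko 2. With 1 library left in a group, such a fit takes the lone library to vary as the other pair does.

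**Figure D2:**
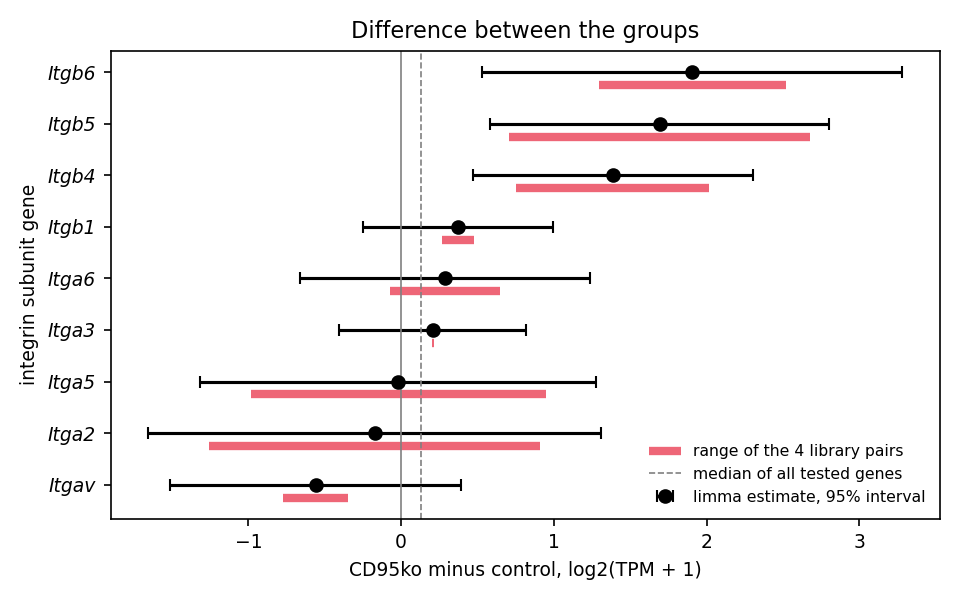
Difference CD95ko minus control in log2(TPM + 1) for the 9 tested members, with black points for the limma estimate, black bars for its 95% interval and red bars for the range over the 4 pairs of 1 CD95ko and 1 control library. The intervals of Itgb4, Itgb5 and Itgb6 lie above 0, and the other 6 cover it; the dashed line is the median of all tested genes, 0.13.

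The upstream sequences of the beta chains are shown because Itgb5 and Itgb6 stood apart from the abundant Itgb1 in these libraries. They are RefSeq windows on GRCm38.p6, of 250 bases before the annotated start, less any bases in a GENCODE M21 exon, and were found for 8 of the 10 members; Itga6 and Itgb4 are named only. Capitals mark matches on either strand to GGGCGG, which is known as the Sp1 motif, to CCAAT, which is bound by the NF-Y complex, to TATAAA, which lies before many start sites, to TGANTCA, which is known from AP-1 targets, and to CACCTG, which is bound by repressors of the Snail and Zeb families; the matches printed do not overlap. Itgb1 is chr8:128685404-128685653 on the forward strand, Itgb5 is chr16:33829415-33829664 on the forward strand, and Itgb6 is chr2:60722644-60722853 on the reverse strand, each written 5′ to 3′ on the gene's strand.
Itgb1: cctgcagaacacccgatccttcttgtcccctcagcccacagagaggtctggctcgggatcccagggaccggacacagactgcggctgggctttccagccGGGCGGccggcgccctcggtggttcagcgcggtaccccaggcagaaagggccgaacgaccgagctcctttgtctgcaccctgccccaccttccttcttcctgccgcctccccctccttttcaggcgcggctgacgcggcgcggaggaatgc
Itgb5: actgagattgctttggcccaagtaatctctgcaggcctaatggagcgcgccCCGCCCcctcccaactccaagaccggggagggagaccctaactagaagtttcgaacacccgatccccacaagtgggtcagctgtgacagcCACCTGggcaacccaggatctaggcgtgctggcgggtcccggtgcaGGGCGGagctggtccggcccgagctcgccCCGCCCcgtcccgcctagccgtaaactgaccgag
Itgb6: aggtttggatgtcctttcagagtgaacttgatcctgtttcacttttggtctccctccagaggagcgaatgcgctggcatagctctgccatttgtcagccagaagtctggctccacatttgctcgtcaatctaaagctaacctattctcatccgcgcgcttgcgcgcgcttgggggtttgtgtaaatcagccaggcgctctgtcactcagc

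The Itgb5 window held 3 GGGCGG matches and 1 CACCTG match, and the Itgb1 window held 1 GGGCGG match. Those Itgb5 counts were not particular to it. An Itga3 window, at chr11:95076715-95076964, held the same in its full 250 bases, with a log2 fold change of 0.21 for Itga3. In the Itgb6 window at its outermost start none of the 5 motifs was found. A second Itgb6 window, at chr2:60673694-60673943, is not printed. Its 1 CACCTG match lies in bases of an annotated exon, and the 189 bases before that exon held no match. Among 32841 RefSeq windows of 250 bases, 32.7% held GGGCGG, 33.9% CCAAT, 12.4% TATAAA, 6.75% TGANTCA and 17.2% CACCTG. CG dinucleotides numbered 21 before Itgb1, 18 before Itgb5 and 11 and 3 in the full 250 bases of the outer and the second Itgb6 window, where the median window had 6. A match is a string of letters here, and no factor's binding was measured.

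The alpha chains showed smaller differences. Itgav, the partner of the beta-5 and beta-6 chains, was 30.3 and 24.9 TPM in the controls and 19.4 and 17.3 TPM in the CD95ko libraries, the single tested member with both CD95ko values below both controls. Its log2 fold change was -0.56 ± 0.42 SE (95% interval -1.51 to 0.39; limma adjusted p = 0.566), so neither no difference nor a difference of over 2-fold was outside the interval. The direction was thus opposite to that of Itgb5 and Itgb6. Itgb5 exceeded Itgav by 2.19 and 1.95 times in the controls, 5.62 times in CD95ko 1 and 18.3 times in CD95ko 2.

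Itga6, the laminin-binding partner of the beta-4 chain, stood at 21.9 and 25.9 TPM in the controls, 34.9 TPM in CD95ko 1 and 24.7 TPM in CD95ko 2. The groups overlapped (log2 fold change 0.29 ± 0.42 SE, 95% interval -0.66 to 1.24, limma adjusted p = 0.789). Itgb4 was 2.23 and 1.05 times Itga6 in the controls and 3.25 and 3.37 times in the CD95ko libraries. This ratio was alike in the 2 clones although both genes were lower in CD95ko 2 than in CD95ko 1. The two-sided exact permutation p of this ratio was 0.333, the smallest that 2 libraries a group allow.

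Itga3 and its partner Itgb1 had narrow spreads. Itga3 averaged 473.2 ± 2.58 TPM over the controls and 546.2 ± 0.325 TPM over the CD95ko libraries, a log2 fold change of 0.21 ± 0.27 SE (95% interval -0.40 to 0.82; limma adjusted p = 0.757). That of Itgb1 was 0.37 ± 0.27 SE (95% interval -0.25 to 1.00; limma adjusted p = 0.558). Both genes had non-overlapping groups in TPM. With each library centred on its median neither did, and the log2 fold changes were 0.01 for Itga3 and 0.17 for Itgb1. Under quantile normalization both did, with log2 fold changes of 0.25 for Itga3 and 0.42 for Itgb1, so the separation depended on the scaling. The ratio of Itga3 to Itgb1 was 1.26 and 1.30 in the controls, 1.20 in CD95ko 1 and 1.08 in CD95ko 2.

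Itga5, the alpha chain of the classical fibronectin receptor, stood at 18.6 and 11.5 TPM in the controls, 8.92 TPM in CD95ko 1 and 23.1 TPM in CD95ko 2, so the clones lay on opposite sides of both controls. Its log2 fold change was -0.02 (95% interval -1.31 to 1.28; limma adjusted p = 0.991). The collagen-binding alpha chain Itga2 had the reverse arrangement, with 10.6 and 6.44 TPM in the controls, 12.95 TPM in CD95ko 1 and 3.87 TPM in CD95ko 2 (log2 fold change -0.17, 95% interval -1.65 to 1.31, limma adjusted p = 0.927). Itga1, also on chromosome 13 and also a collagen receptor chain, had 0.58 TPM in control 1 and 2.84 TPM in CD95ko 1, and was at 0 in control 2 and CD95ko 2. Itga1 and Itga2 were thus highest in CD95ko 1, while Itga5 and Itgb5 were highest in CD95ko 2.

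The spread within a group was described by setting its 2 libraries against each other, 1 library a side and with no test. No tested member differed by over 2-fold between the controls, where 14.4% of tested genes did. Between the clones 3 of the 9 did, Itga2, Itga5 and Itgb5, where 23.3% of tested genes did. The difference CD95ko 2 minus CD95ko 1 on the log2(TPM + 1) scale was 1.53 for Itgb5, 1.28 for Itga5 and -1.52 for Itga2. For Itgb6 it was -0.82 and for Itgb4 -0.44, so of the 3 beta chains with an unadjusted p under 0.05 between the groups, Itgb5 had its higher value in CD95ko 2, and Itgb4 and Itgb6 had theirs in CD95ko 1. In control 2, 8 of the 9 tested members were below control 1, and Itga6 was the exception; the median of the members was -0.40 and that of all tested genes -0.35.

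**Figure D3:**
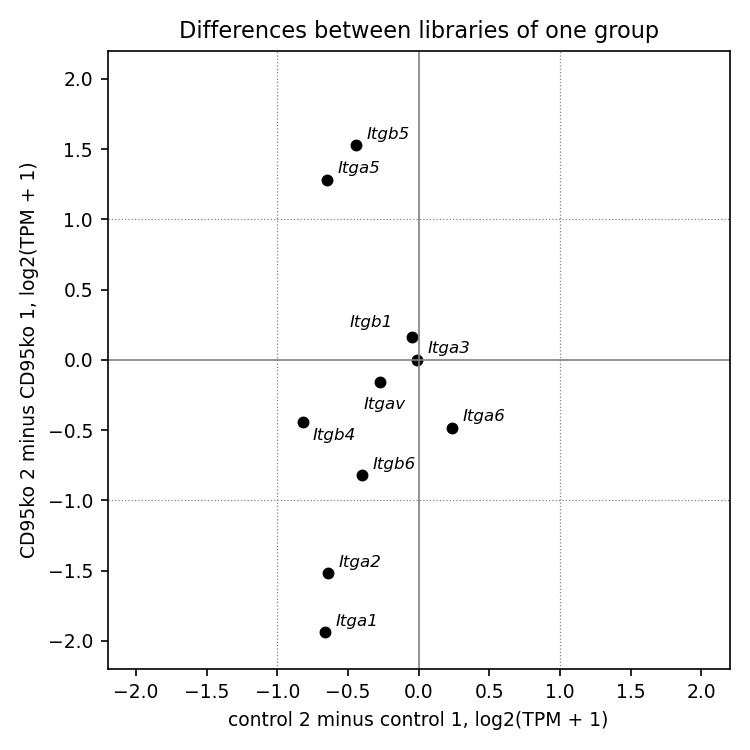
Difference between the controls (horizontal axis) and between the CD95ko libraries (vertical axis) for all 10 members, both in log2(TPM + 1), with dotted lines at a 2-fold difference. All points lie within the dotted lines on the horizontal axis, and Itgb5, Itga5, Itga2 and the untested Itga1 lie outside them on the vertical axis.

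Summing the members gives the size of the subunit pools. The 6 alpha genes summed to 557.0 and 540.2 TPM in the controls and 624.9 and 615.4 TPM in the CD95ko libraries, and Itga3 held between 85.3% and 88.8% of that pool. The 4 beta genes summed to 493.8 and 440.7 TPM in the controls, 689.5 TPM in CD95ko 1 and 913.6 TPM in CD95ko 2. The ratio of alpha to beta transcripts, which does not depend on the scaling between libraries, was 1.13 and 1.23 in the controls and 0.906 and 0.674 in the CD95ko libraries, below 1 in both clones (two-sided exact permutation p = 0.333, the smallest possible).

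The make-up of the beta pool differed in the same way. Itgb1 made up 76.1% and 82.4% of it in the controls, 65.7% in CD95ko 1 and 55.4% in CD95ko 2. Itgb4 took 9.90% and 6.18% in the controls, 16.4% in CD95ko 1 and 9.11% in CD95ko 2, so by share the groups overlapped. Itgb5 took 13.5% and 11.0% in the controls, 15.8% in CD95ko 1 and 34.6% in CD95ko 2. Itgb6 remained the smallest share, at 0.496% and 0.365% in the controls and 2.02% and 0.817% in the clones. The larger non-Itgb1 share was thus mostly Itgb4 and Itgb5 in similar amounts in CD95ko 1 and mostly Itgb5 in CD95ko 2.

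**Figure D4:**
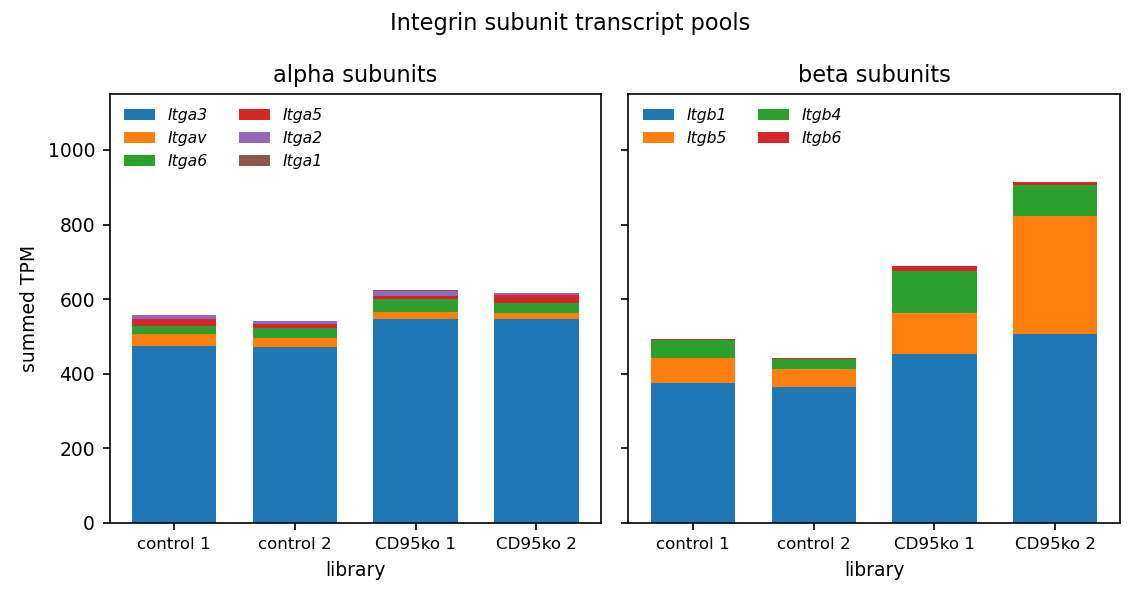
Summed TPM of the alpha (left) and beta (right) subunit genes in each library, with 1 coloured segment per gene. The beta pool stands at 440.7 to 493.8 TPM in the controls and 689.5 and 913.6 TPM in the CD95ko libraries, with Itgb5 taking the largest non-Itgb1 segment in CD95ko 2.

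All 10 members together summed to 1051 and 981 TPM in the controls and 1314 and 1529 TPM in CD95ko 1 and CD95ko 2, a ratio of group means of 1.40. This total depended on the scaling: with TPM rescaled to a common median of tested genes it was 974 and 1246 in the controls and 1190 and 1484 in the CD95ko libraries, which overlapped.

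Of the other 17 integrin subunit genes, 10 were listed at 0 in all 4 libraries, including the leukocyte alpha chains Itgal, Itgam, Itgax and Itgad, the alpha-4 chain gene Itga4 and the beta-8 chain gene Itgb8. Of the 3 that were tested, Itga7, a laminin-binding alpha chain, was 3.53 and 4.51 TPM in the controls and 0.78 and 2.44 TPM in the CD95ko libraries (limma adjusted p = 0.504). Itgb2, the leukocyte beta chain, stood at 18.0 and 6.44 TPM in the controls, 12.2 TPM in CD95ko 1 and 68.5 TPM in CD95ko 2, with the 4 leukocyte alpha chains and the pan-leukocyte marker Ptprc at 0 in every library. Itgb7, whose known partners Itga4 and Itgae were also at 0, was 12.2 and 2.47 TPM in the controls, 0 in CD95ko 1 and 9.97 TPM in CD95ko 2. Neither Itgb2 nor Itgb7 separated the groups (limma adjusted p = 0.455 and 0.698).

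Genes for matrix ligands were read from lists, and none of the ligand, adaptor, hemidesmosome, membrane partner or trafficking genes passed the adjusted threshold in limma. Of 18 laminin and collagen genes 11 were tested, of which 6 were higher and 1 lower at an unadjusted p under 0.05, against 9.25% and 5.68% of all tested genes (median log2 fold change 0.78, and 0.13 over all tested genes). Lama3 and Lamb3 encode epithelial laminin chains bound by the receptors formed with Itga3 and with Itga6 and Itgb4. Lama3 was 8.81 and 6.36 TPM in the controls and 21.6 and 17.0 TPM in the CD95ko libraries (limma adjusted p = 0.284). For Lamb3 the groups overlapped, with 47.95 and 72.9 TPM in the controls and 64.0 and 115.6 TPM in the CD95ko libraries. The beta-2 laminin chain gene Lamb2 (log2 fold change 1.85 ± 0.42 SE, limma adjusted p = 0.138) and the basement membrane collagen gene Col4a5 (2.49 ± 0.56 SE, limma adjusted p = 0.136) were also higher in both clones.

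Of 15 genes for RGD and related ligands 10 were tested, of which 5 were higher and 1 lower at an unadjusted limma p under 0.05, against 9.25% and 5.68% of all tested genes. Fn1, encoding fibronectin, stood at 346.6 and 151.0 TPM in the controls, 329.1 TPM in CD95ko 1 and 921.0 TPM in CD95ko 2, so it was high in the clone in which Itga5 and Itgb5 were high, and the groups overlapped. Thbs1, encoding the matrix glycoprotein thrombospondin-1, stood at 42.5 and 15.9 TPM in the controls, 109.7 TPM in CD95ko 1 and 475.4 TPM in CD95ko 2 (limma adjusted p = 0.136). Tgfb1, whose latent form is a ligand of the beta-6 receptor, was 32.8 and 26.95 TPM in the controls and 17.0 and 30.8 TPM in the CD95ko libraries, with overlap. Tgfb3, another latent ligand of it, was 22.15 and 8.87 TPM in the controls and 49.3 and 63.2 TPM in the CD95ko libraries (limma adjusted p = 0.159). Cyr61, the older symbol of Ccn1 and a matricellular integrin ligand, was the lower one, at 293.1 and 312.8 TPM in the controls and 95.35 and 196.0 TPM in the CD95ko libraries (limma adjusted p = 0.232). Vtn, encoding vitronectin, was listed at 0 in all 4 libraries.

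Among hemidesmosome partners, 6 of 7 were tested and all 6 had a positive log2 fold change, as did 57.4% of all tested genes. The 6 ranged from 0.03 to 1.64. At an unadjusted limma p under 0.05, 3 were higher, as were 9.25% of all tested genes. The untested partner, Col17a1, was at 0 and 0.24 TPM in the controls and 0.29 and 0 TPM in CD95ko 1 and CD95ko 2. This list shares its laminin genes with the ligands. Plec, encoding the linker plectin that binds the beta-4 tail, stood at 14.5 and 9.18 TPM in the controls, 22.6 TPM in CD95ko 1 and 64.3 TPM in CD95ko 2 (limma adjusted p = 0.239). Of 26 cytoplasmic adaptor and signalling genes 24 were tested, with 3 higher and 1 lower at an unadjusted p under 0.05, against 9.25% and 5.68% of all tested genes, and a median log2 fold change of 0.17, near the 0.13 of all tested genes. Vcl, encoding vinculin, was 22.2 and 18.9 TPM in the controls and 58.7 and 63.8 TPM in the CD95ko libraries (limma adjusted p = 0.147). Tln1, encoding talin, the activator that binds beta tails, was 55.8 and 52.9 TPM in the controls and 83.9 and 119.0 TPM in the CD95ko libraries (limma adjusted p = 0.289). Ilk, the integrin-linked kinase gene, was the lower one, at 183.7 and 173.4 TPM in the controls and 106.9 and 107.0 TPM in the CD95ko libraries (limma adjusted p = 0.298).

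**Figure D5:**
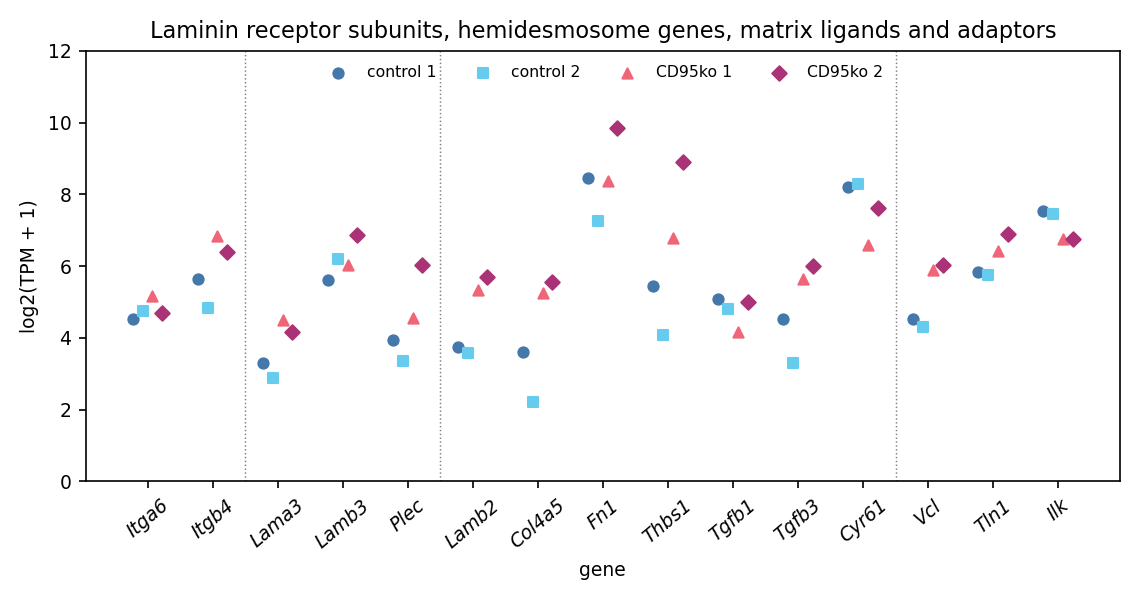
Levels as log2(TPM + 1) of Itga6 and Itgb4, then Lama3, Lamb3 and Plec, then other ligand genes, then 3 cytoplasmic adaptors, with 1 point per library (symbols by library as in the key). Both CD95ko points lie above both control points for Itgb4, Lama3, Plec, Lamb2, Col4a5, Thbs1, Tgfb3, Vcl and Tln1, below them for Cyr61 and Ilk, and overlap them for Itga6, Lamb3, Fn1 and Tgfb1.

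Of 13 membrane partners all were tested, with 3 higher and 2 lower at an unadjusted limma p under 0.05, against 9.25% and 5.68% of all tested genes. Plaur, the urokinase receptor gene, was lower, at 83.05 and 162.2 TPM in the controls and 33.8 and 37.9 TPM in the CD95ko libraries (limma adjusted p = 0.147). The tetraspanin gene Cd81 was 84.0 and 87.5 TPM in the controls and 165.0 and 280.6 TPM in the CD95ko libraries (limma adjusted p = 0.162), and the syndecan gene Sdc1 was 79.4 and 69.1 TPM against 182.8 and 137.5 TPM (limma adjusted p = 0.195). Of 11 trafficking genes 10 were tested, with 2 higher and 1 lower at that p, read against the same shares. Rab25, an epithelial GTPase known to recycle integrins, was 86.2 and 12.3 TPM in the controls and 320.8 and 290.4 TPM in the CD95ko libraries (limma adjusted p = 0.137). Rab4a, of the rapid recycling route, was 14.4 and 18.8 TPM against 33.4 and 39.9 TPM (limma adjusted p = 0.273), and the endocytic adaptor gene Dab2 was lower, at 6.51 and 3.42 TPM against 1.03 and 0.86 TPM (limma adjusted p = 0.306). The epithelial markers were higher in both clones by their sum. Of the 8, 7 had both CD95ko libraries above both controls, as had 29.2% of all tested genes, and 1 overlapped. Their log2 fold changes ranged from -0.48 to 2.01. The part of these markers in any of the differences above was not tested.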

How the data were processed

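The authors deposited 1 table per library with 24411 gene symbols and their TPM, per the file headers. STAR 2.6.0, RSEM 1.3.0 and the build mm10 are named in the submitters' processing notes; the annotation and options are not given in the sources used here. Groups came from the sample titles. Genes of at least 1 TPM in at least 2 libraries (11167) entered on the log2(TPM + 1) scale, and the groups were compared in R 4.3.3 by limma 3.58.1 (eBayes with a variance trend, two-sided, Benjamini-Hochberg over all tested genes, threshold 0.05), with all 4 libraries and no covariate. Fold changes on this scale understate those of low genes. Each library stands for a different line or clone, and no line or clone has a second library. The p-values thus measure the spread between these libraries only, and that spread includes differences between lines and clones.

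The members and gene lists were chosen with earlier results of these data known. Named genes were all members, Fas, other integrin genes of at least 1 TPM in at least 2 libraries, Lama3, Lamb3, Fn1 and Tgfb1, and up to 3 genes per list with the smallest unadjusted p under 0.05 (1 gene that met the rule is not reported here); Itga4, Itgae, Itgal, Itgam, Itgax, Itgad, Itgb8, Vtn, Ptprc, Cd68 and Csf1r were added after their values were seen. Coordinates and upstream windows are RefSeq's on GRCm38.p6. Alternatives were no filter, a pseudocount of 0.1, robust eBayes, eBayes with no trend, 2 other scalings (quantile normalization and median centring), the replicate number as a block and leaving out each library. The replicate numbers were not taken to pair libraries (correlation of deviations -0.081). In simulated data for this comparison with 11167 genes, the share called of 200 altered genes was 0.5% for a log2 change of 1, 46% for 2 and 86% for 3, with 3 false calls among 4, 8 among 100 and 15 among 187.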

Additional observations from a re-analysis of the deposited data

How the results depend on the processing

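The number of tested genes past an adjusted limma p of 0.05 was 6 as reported, 0 without the filter, with a pseudocount of 0.1, with no trend, under quantile normalization and with median centring, 52 under robust eBayes, and from 0 to 1356 with 1 library left out. At an unadjusted p under 0.05 the settings that gave 0 had between 560 and 1862 genes. It was 2 under the replicate block, and the block left the members' calls as reported: 3 were below an unadjusted p of 0.05, and none passed the adjusted threshold (smallest 0.204). The 3 members with an unadjusted p under 0.05 were Itgb4, Itgb5 and Itgb6 under each of the 8 settings with all 4 libraries. With 1 library left out the count was 0 to 3, and it was 0 without control 2. The summed TPM of the 10 members was 1.40 times the controls as reported and 1.20 times after rescaling to a common median. The log2 fold change of Itga2 ranged from -0.93 to 0.59 with 1 library left out, positive at 0.15 without control 1 and at 0.59 without CD95ko 2. That of Itga5 ranged from -0.66 to 0.62, positive at 0.30 without control 1 and at 0.62 without CD95ko 1. In 93 other combinations of a member and a setting the direction and the side of the threshold were as reported. In 2 more the direction was as reported but the side of the adjusted threshold was not. These were Itgb5 without CD95ko 1 (log2 fold change 2.46) and Itgb4 without CD95ko 2 (1.61), both with a lone CD95ko library whose spread is unknown. Where no value is given for it, the cause was not tested. Depth is unknown from TPM, so the members listed at 0 have no detection limit, and in simulated data a change of 1 on the log2 scale was seldom called.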
